A study of Mus musculus with 8 samples.

Results

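The transcripts described here belong to 50 genes of DNA replication and cell division, followed through 8 cultures of mouse bone-marrow-derived macrophages. The genes were taken by symbol from a list of 50, and all 50 were found among the 56980 genes counted and passed the filter on low counts. By their known roles 20 of them were placed in an S-phase class, 28 in a mitotic class that includes G2 and cytokinesis, and 2, the microtubule genes Stmn1 and Tubb5, in neither. Of the cultures 4 came from mice with a constitutive knockout of Grn, the gene of the lysosomal and secreted protein progranulin (GrnKO), and 4 from wildtype mice (WT). All were of strain C57/Bl6 and all received DMSO, the solvent used as vehicle. Each biological replicate was made from marrow pooled over several mice, differentiated for 7 days with 50 ng/mL of the growth factor M-CSF, frozen, thawed, replated and cultured for 3 more days. Which piece of Grn is deleted, and the age and sex of the mice, are not given in the sources used here. The comparison asks how the S-phase and the mitotic genes differ between genotypes and how far they spread among the cultures of each genotype.

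Macrophages grown from marrow need M-CSF signalling through its receptor to divide, and their exit from the cycle accompanies maturation. S-phase genes are switched on at the G1/S boundary, when cyclin-dependent kinases release E2F transcription factors from RB family proteins. Mitotic genes follow in G2 through B-MYB, FOXM1 and the MuvB core, which read a short promoter element, the cell cycle genes homology region (CHR), often beside CCAAT boxes bound by NF-Y. A culture with more cycling cells therefore holds more of both classes of transcript, and in bulk RNA fewer cycling cells and less of these transcripts per cycling cell cannot be told apart.

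Promoters of 6 members given in every library below are shown, so that the elements counted in each class can be seen in place. Each is the RefSeq window of GRCm38.p6 from 250 bases before to 50 bases after the gene's start, 300 bases in all, read 5′ to 3′ on the gene's strand. Capitals mark matches on either strand to CCAAT, to the CHR words TTTGAA or TTCGAA, and to the E2F words TTTGGCGC, TTTCGCGC, TTTCCCGC or TTTGCCGC. The S-phase genes shown are Mcm5 (chr8:75109259-75109558, plus strand), a subunit of the replicative helicase with 3 CCAAT boxes and 2 overlapping E2F words, and Pcna (chr2:132253131-132253430, minus strand), the sliding clamp of DNA polymerase with 1 CCAAT box. The mitotic genes shown are Cdk1 (chr10:69352863-69353162, minus strand), the kinase that drives entry into mitosis, Cdc20 (chr4:118437294-118437593, minus strand), an activator of the anaphase-promoting complex, Hmgb2 (chr8:57511593-57511892, plus strand), a chromatin protein, and Cenpa (chr5:30666636-30666935, plus strand), the histone H3 variant of centromeres.
Mcm5: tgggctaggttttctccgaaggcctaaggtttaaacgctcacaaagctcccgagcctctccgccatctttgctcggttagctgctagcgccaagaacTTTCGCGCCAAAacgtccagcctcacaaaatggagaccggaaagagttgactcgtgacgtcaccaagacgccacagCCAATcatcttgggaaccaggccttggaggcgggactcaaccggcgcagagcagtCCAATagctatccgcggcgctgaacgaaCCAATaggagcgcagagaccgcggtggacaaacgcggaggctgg
Pcna: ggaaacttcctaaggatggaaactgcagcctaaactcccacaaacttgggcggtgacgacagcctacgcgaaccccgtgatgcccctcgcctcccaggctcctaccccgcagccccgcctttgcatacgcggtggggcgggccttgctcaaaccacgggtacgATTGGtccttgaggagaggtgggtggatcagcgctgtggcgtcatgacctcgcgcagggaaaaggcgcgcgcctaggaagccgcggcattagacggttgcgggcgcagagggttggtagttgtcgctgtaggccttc
Cdk1: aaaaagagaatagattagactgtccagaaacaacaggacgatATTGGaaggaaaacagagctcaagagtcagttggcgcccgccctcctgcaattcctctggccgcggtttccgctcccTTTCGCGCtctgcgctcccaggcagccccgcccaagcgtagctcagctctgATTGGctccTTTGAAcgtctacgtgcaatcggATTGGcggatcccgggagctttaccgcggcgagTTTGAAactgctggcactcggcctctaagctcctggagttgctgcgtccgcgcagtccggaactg
Cdc20: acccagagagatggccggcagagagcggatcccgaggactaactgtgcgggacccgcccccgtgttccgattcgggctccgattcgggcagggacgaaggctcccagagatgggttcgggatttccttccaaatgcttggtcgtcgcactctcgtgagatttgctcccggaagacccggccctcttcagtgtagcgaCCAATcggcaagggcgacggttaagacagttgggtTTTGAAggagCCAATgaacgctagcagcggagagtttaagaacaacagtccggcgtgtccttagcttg
Hmgb2: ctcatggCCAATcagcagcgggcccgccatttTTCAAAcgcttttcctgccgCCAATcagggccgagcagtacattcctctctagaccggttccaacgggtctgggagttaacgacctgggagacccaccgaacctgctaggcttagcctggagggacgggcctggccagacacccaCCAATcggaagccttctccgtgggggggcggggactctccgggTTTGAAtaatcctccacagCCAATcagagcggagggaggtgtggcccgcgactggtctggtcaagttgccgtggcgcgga
Cenpa: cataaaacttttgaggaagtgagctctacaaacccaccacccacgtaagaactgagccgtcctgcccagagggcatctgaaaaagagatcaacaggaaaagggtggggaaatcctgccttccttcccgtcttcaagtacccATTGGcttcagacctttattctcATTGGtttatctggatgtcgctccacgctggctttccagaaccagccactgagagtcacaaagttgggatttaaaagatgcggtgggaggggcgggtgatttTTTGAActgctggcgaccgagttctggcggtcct

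All the mitotic promoters shown hold a CHR word, and neither S-phase promoter shown does. A window was matched by symbol for 41 of the 50 members, 17 of them S-phase and 23 mitotic. Mcm4, Gins2, Ccne2, Ccna2, Aurkb, Kif20a, Tpx2, Smc4 and Stmn1 had none. A CHR word stood in 19 of 23 mitotic windows (82.6%) and in 3 of 17 S-phase windows (17.6%), with 21.7% over all 27025 genes of the promoter table. CCAAT boxes were found in 21 of 23 mitotic windows (91.3%) and 9 of 17 S-phase windows (52.9%), beside 41.1% over all genes. E2F words ran the other way, with 1 of 23 mitotic windows (4.35%, that of Cdk1) and 7 of 17 S-phase windows (41.2%), beside 2.61% over all genes. The 7 were Mcm3, Mcm5, Mcm6, Mcm7, Cdc6, Cdt1 and Uhrf1. These matches describe letters in a window and not bound sites.

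Library totals ran from 5828180 to 7944860 estimated counts in GrnKO and from 7413220 to 8768770 in WT, with RNA integrity numbers of 9.9 or 10 throughout. Grn itself stood at 13.0 to 14.4 CPM (counts scaled to the library total) in GrnKO and 1436 to 2027 CPM in WT libraries. Of 12186 genes tested, 340 were higher and 178 lower in GrnKO at an adjusted p under 0.05 (edgeR's quasi-likelihood test, the test behind every adjusted p here). Summed markers of macrophages reached 7188 to 8898 CPM in GrnKO and 6303 to 11181 CPM in WT, and those of erythroid cells, lymphocytes, fibroblasts, mast cells and dendritic cells stayed at or below 3.55 CPM in every library, with Hba-a1, Hba-a2, Alas2 and Gzma at 0. P-values measure the spread between pooled-marrow cultures.

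The main feature of the 50 genes was their spread among the WT cultures. Their summed transcripts made up 0.544%, 0.498%, 0.510% and 0.741% of the counts in GrnKO replicates 1 to 4, and 0.994%, 0.716%, 0.714% and 0.412% in WT replicates 1 to 4. All 4 GrnKO libraries thus lay between the extremes of WT, whose highest library was replicate 1 and lowest replicate 4. Within WT, replicate 1 was the highest and replicate 4 the lowest library for 41 of 50 members (82%), against 18% of all tested genes. This held for 19 of 20 S-phase and 21 of 28 mitotic members. Within GrnKO, replicate 4 was the highest library for 49 of 50 members (98%), against 29.6% of all tested genes. The members share their libraries, so these counts are not independent of each other.

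**Figure D1:**
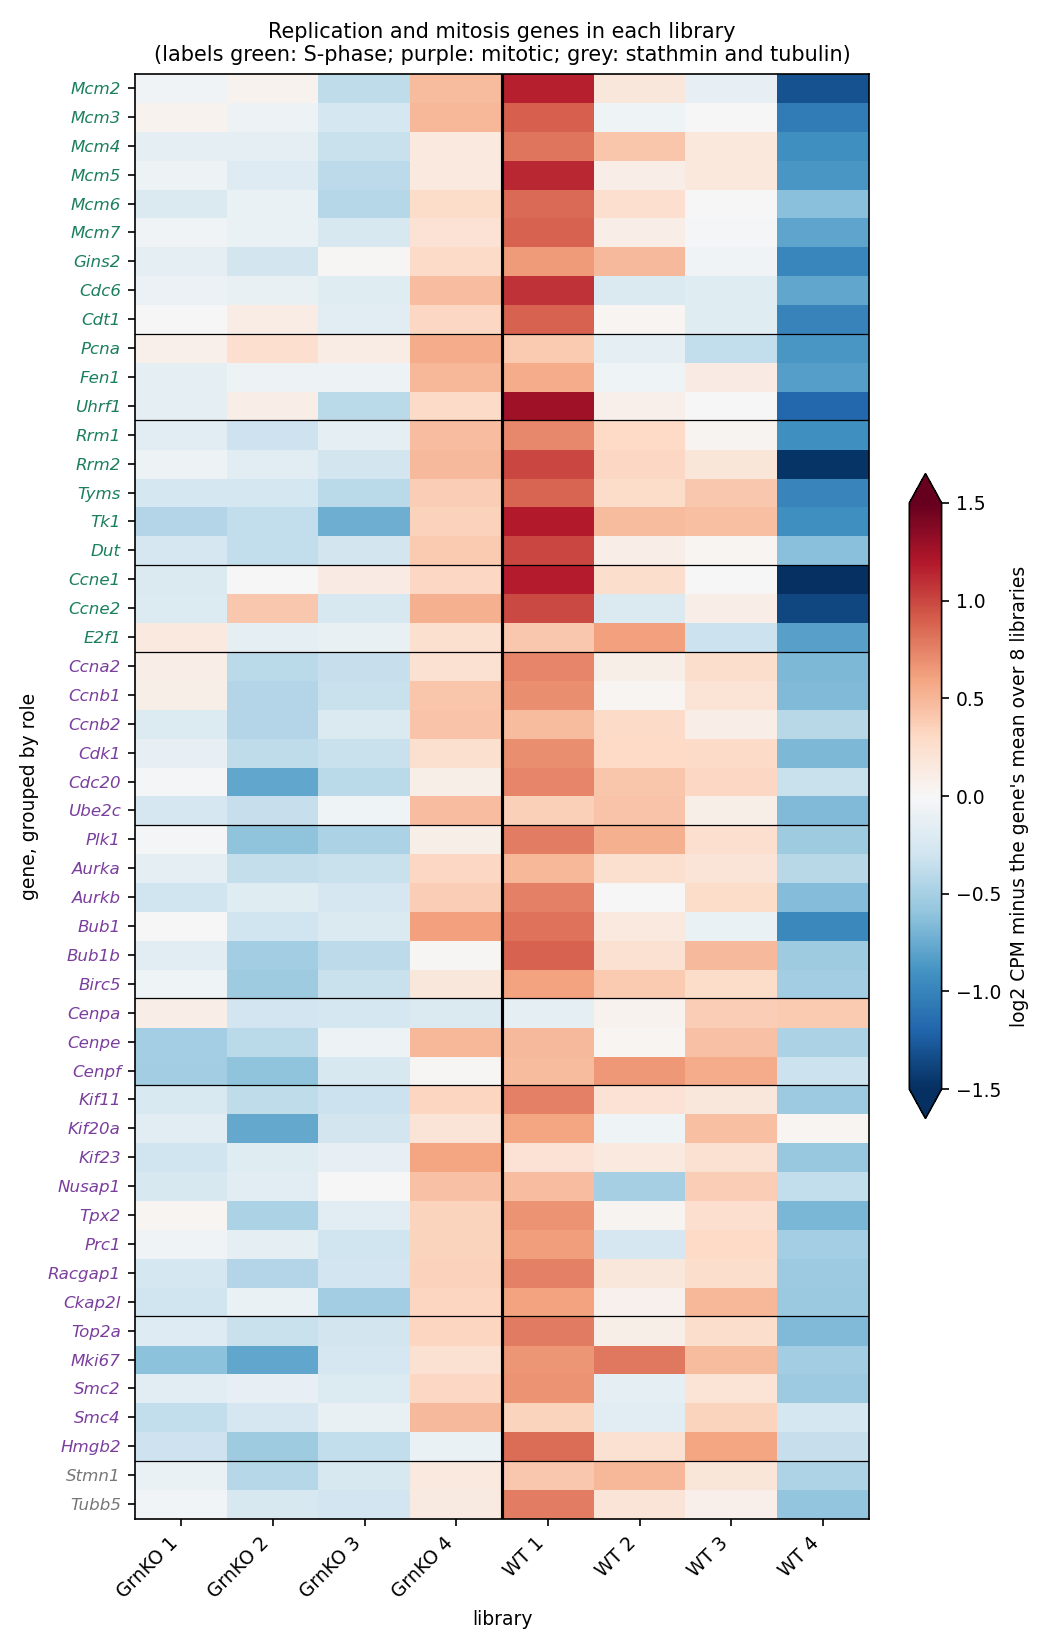
Heat map of the 50 genes (rows) in the 8 libraries (columns, GrnKO left of WT), coloured by log2 CPM relative to the gene's mean over all libraries, with S-phase, mitotic and microtubule genes marked by the colour of their names. WT replicate 1 is the highest WT library for 43 of the 50 genes and WT replicate 4 the lowest for 47, and GrnKO replicate 4 is the highest GrnKO library for 49.

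The S-phase class spread more widely in WT than the mitotic class did. The mean log2 CPM of the 20 S-phase genes was 5.77, 5.80, 5.65 and 6.25 in GrnKO replicates 1 to 4 and 6.77, 6.05, 5.90 and 4.90 in WT replicates 1 to 4. That is 5.86 ± 0.26 in GrnKO and 5.91 ± 0.77 in WT (SD, n = 4 each), with a range of 0.60 in GrnKO and 1.88 in WT. The 28 mitotic genes averaged 6.24, 6.02, 6.16 and 6.70 in GrnKO replicates 1 to 4 and 7.02, 6.58, 6.72 and 5.94 in WT replicates 1 to 4. Their means were 6.28 ± 0.29 in GrnKO and 6.57 ± 0.45 in WT (SD, n = 4 each), with ranges of 0.68 and 1.08. The genotypes overlapped in both classes, and the differences of -0.04 (S-phase) and -0.29 (mitotic) in mean log2 CPM were smaller than the SD among WT cultures.

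The balance of the classes also varied among cultures. Mitotic minus S-phase mean log2 CPM was 0.47, 0.23, 0.51 and 0.46 in GrnKO replicates 1 to 4 and 0.25, 0.53, 0.82 and 1.05 in WT replicates 1 to 4. GrnKO averaged 0.42 ± 0.13 and WT 0.66 ± 0.35 (SD, n = 4 each), with overlapping values. The size of the offset depends on which genes are in each class, and only its differences between libraries are read here. Relative to the WT mean, WT replicate 4 stood at -1.01 in S-phase and -0.62 in mitotic genes, and it had the highest offset of the 8 libraries. WT replicate 1 stood at 0.87 in S-phase and 0.45 in mitotic genes and had the lowest offset in WT.

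**Figure D2:**
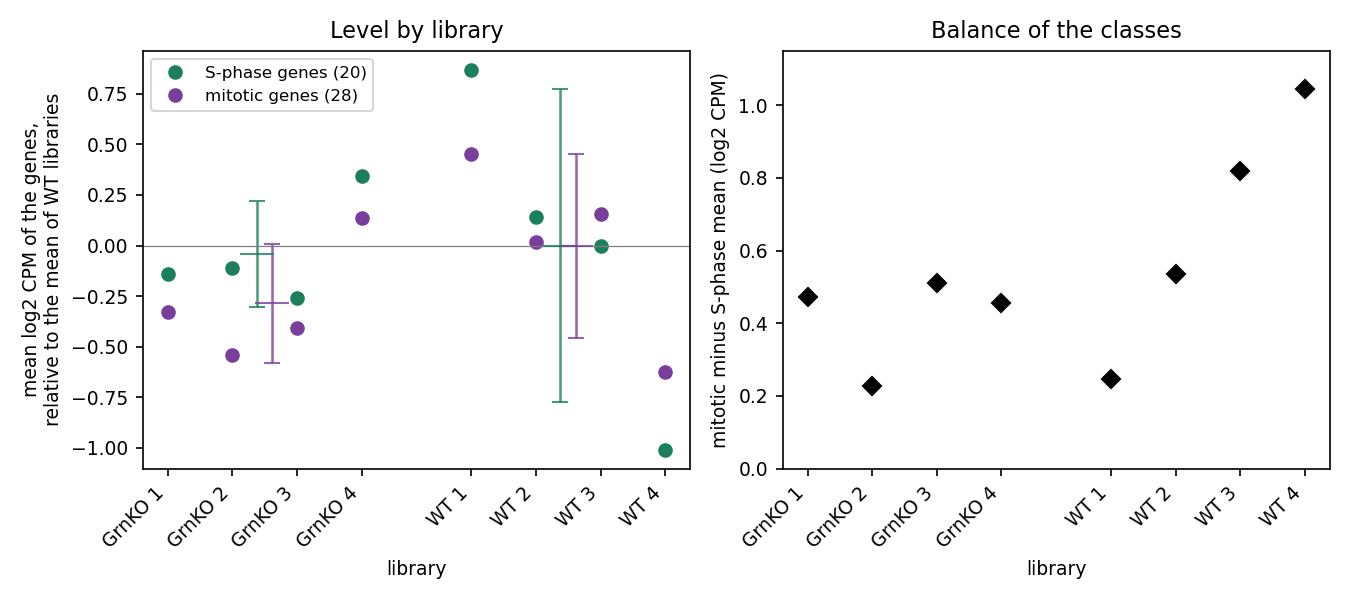
Left, mean log2 CPM of the S-phase and the mitotic genes in each library, relative to the WT mean of the class, with the mean and SD of 4 libraries per genotype. Right, mitotic minus S-phase mean log2 CPM per library. The S-phase points of WT run from -1.01 to 0.87 and those of GrnKO from -0.26 to 0.34.

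Gene by gene, the SD of log2 CPM over 4 libraries had a median of 0.30 in GrnKO and 0.78 in WT for S-phase genes, and of 0.33 in GrnKO and 0.52 in WT for mitotic genes. Over all tested genes the medians were 0.19 in GrnKO and 0.28 in WT. The SD was smaller in GrnKO than in WT for 46 of 50 members (92%), beside 70.1% of all tested genes. The 46 held all 20 S-phase genes and 24 of 28 mitotic genes, and the other 4 were Kif20a, Cenpe, Kif23 and Smc4. Counting error was small beside these values: its median SD over the members was 0.07 in GrnKO and 0.05 in WT, and every member exceeded its own in both genotypes, Ccne1 in GrnKO only narrowly (0.21 against a counting SD of 0.20). The ratio of the highest to the lowest library had a median of 1.59 in GrnKO and 3.64 in WT for S-phase genes, and of 1.63 in GrnKO and 2.26 in WT for mitotic genes. In WT it ran from 1.44 for Cenpa to 7.23 for Ccne1.

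Single libraries carried much of the spread in each genotype. Those left out here were the outermost of their genotype, which lowers the SD by construction. Without GrnKO replicate 4 the median SD of GrnKO was 0.14 for S-phase and 0.15 for mitotic genes. Without WT replicate 4 the median SD of WT was 0.49 for S-phase and 0.30 for mitotic genes. With WT replicates 1 and 4 both left out, an alternative chosen after seeing the data, it was 0.14 and 0.17 over the 2 cultures that remained. Library totals in WT followed the same order as the S-phase means, from 8768770 in replicate 1 to 7413220 in replicate 4, and GrnKO replicate 4 had the highest total in GrnKO. After all libraries were thinned to the smallest total the median SDs were 0.29 in GrnKO and 0.75 in WT for S-phase genes, and 0.33 in GrnKO and 0.51 in WT for mitotic genes.

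**Figure D3:**
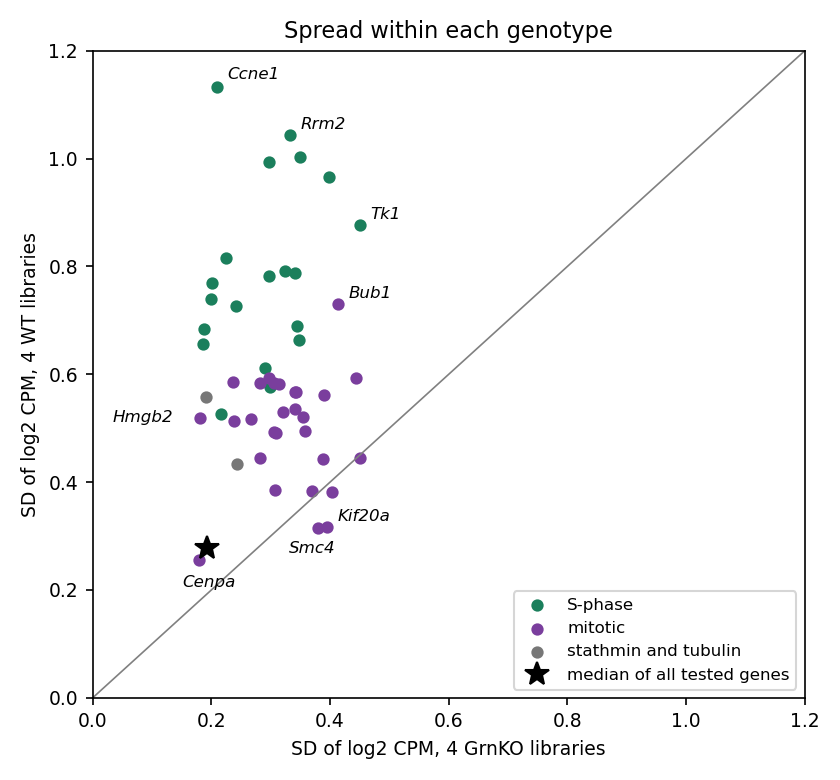
SD of log2 CPM over 4 libraries in GrnKO (horizontal) and in WT (vertical) for each of the 50 genes, by class, with the line of equal spread and a star at the medians of all tested genes (0.19 in GrnKO, 0.28 in WT). All S-phase genes lie above the line, and 4 mitotic genes lie below it.

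Summed cell type markers also differed among the WT cultures, but not all in the same direction. Summed neutrophil markers were 19.1, 27.0, 16.3 and 14.8 CPM in GrnKO replicates 1 to 4 and 157, 82.5, 74.1 and 43.3 CPM in WT replicates 1 to 4. The WT order was that of the S-phase means, whereas in GrnKO the lowest sum was in replicate 4, where the cycle genes were highest. Of 11 listed neutrophil markers 3 were expressed enough to be tested. All 3, S100a8, S100a9 and Ngp, passed the test as lower in GrnKO, beside 1.46% of all tested genes. In WT replicate 1 most of the sum came from S100a8 (85.9 CPM) and S100a9 (48.6 CPM). The listed marker Ly6g had at most 2 counts in any library. Summed macrophage markers were lowest in WT replicate 1 (6303 CPM) and highest in WT replicate 4 (11181 CPM), and in GrnKO they were lowest in replicate 4 (7188 CPM). Much of the sum was Lyz2, with 3100 CPM in WT replicate 1 and 6008 CPM in WT replicate 4. Of the 10 markers only Fcgr1 (52.3 and 30.9 CPM) and Cd14 (155 and 141 CPM) were higher in WT replicate 1 than in WT replicate 4. Of 10 macrophage markers 1, C1qa, passed the test as lower in GrnKO, beside 1.46% of all tested genes. Progenitor markers summed to 204 to 258 CPM in GrnKO. In WT replicates 1 to 4 they summed to 155, 199, 234 and 277 CPM, the reverse of the neutrophil order. Nearly all of this sum came from Cd48 (130, 142, 160 and 187 CPM) and Sox4 (19.9, 53.4, 72.9 and 85.7 CPM). Cd34, Kit, Flt3, Myb and Gata2 each stayed at or below 2.45 CPM in WT. Of these, Myb and Gata2 were highest in WT replicate 1, so the sum does not follow every listed marker. Of 3 progenitor markers tested (7 listed) 1, Kit, passed the test as higher in GrnKO, beside 2.79% of all tested genes. The part of these cells in the spread of the cycle genes was not tested.

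Helicase loading genes show the S-phase pattern. Mcm2 to Mcm7 encode the ring-shaped replicative helicase, Cdc6 and Cdt1 load it on origins, and Gins2 belongs to the complex that activates it. Mcm5 had 80.1, 73.8, 64.4 and 93.6 CPM in GrnKO replicates 1 to 4 and 186, 91.1, 94.7 and 46.4 CPM in WT replicates 1 to 4. WT replicate 1 was far above and WT replicate 4 below every GrnKO library. Mcm6 had 129, 139, 111 and 180.4 CPM in GrnKO and 269, 178, 148 and 96.7 CPM in WT, again with all of GrnKO inside the range of WT. Their log2 fold changes of GrnKO over WT were -0.43 ± 0.32 (SE, edgeR adjusted p = 0.54) and -0.31 ± 0.26 (edgeR adjusted p = 0.59). All 9 genes of this role had values below 0, down to that of Mcm5, with a median of -0.17, and WT replicate 1 exceeded WT replicate 4 by 2.79-fold (Mcm6) to 5.54-fold (Mcm2). Without WT replicate 1 the log2 fold change of Mcm5 was 0.01.

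Pcna had the highest log2 fold change of the 50, without passing the test. It had 513, 575, 525 and 712 CPM in GrnKO replicates 1 to 4 and 636, 438, 377 and 264 CPM in WT replicates 1 to 4. WT replicate 1 overlapped the GrnKO libraries, and the other WT libraries lay below all of them. Its log2 fold change was 0.44 ± 0.22 (95% interval -0.05 to 0.92, edgeR adjusted p = 0.33). Without WT replicate 1 it was 0.69, with an edgeR adjusted p of 0.034. Leaving out the only WT library that overlapped GrnKO widens the difference by construction. Reads could be shared with the pseudogenes Pcna-ps1 and Pcna-ps2, whose largest count in a library was 92, so that the value of Pcna is uncertain. Fen1, the nuclease that trims Okazaki fragments, had a log2 fold change of 0.05 ± 0.25, and Uhrf1, which maintains DNA methylation behind the fork, one of -0.32 ± 0.39.

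Genes of nucleotide supply were below 0 in log2 fold change in all 5 cases, with a median of -0.34. They encode the ribonucleotide reductase subunits Rrm1 and Rrm2, thymidylate synthase (Tyms), thymidine kinase (Tk1) and dUTPase (Dut). Tk1 had 23.8, 25.0, 19.5 and 41.0 CPM in GrnKO replicates 1 to 4 and 73.8, 44.8, 44.3 and 17.0 CPM in WT replicates 1 to 4. In WT 3 libraries were above all of GrnKO and replicate 4 was below it. Its log2 fold change of -0.72 ± 0.36 was the lowest of the S-phase genes, with a 95% interval from -1.51 to 0.08 (edgeR adjusted p = 0.33). Rrm1 had 114, 103, 117 and 177 CPM in GrnKO and 210.3, 158, 132 and 67.9 CPM in WT, a log2 fold change of -0.15 ± 0.29 (edgeR adjusted p = 0.84) with the same WT extremes. Rrm2 differed 5.55-fold between WT replicates 1 and 4. Tyms, whose pseudogene Tyms-ps had at most 2 counts, differed 3.63-fold.

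Among the roles, the G1/S regulators had the highest median SD in WT (0.97, with 0.21 in GrnKO) and a median log2 fold change of -0.03. Cyclins E1 and E2 (Ccne1, Ccne2) activate CDK2 at the start of S phase, and E2f1 encodes the activating E2F factor. Ccne1 had 6.40, 7.46, 8.08 and 9.17 CPM in GrnKO replicates 1 to 4 and 16.7, 8.92, 7.43 and 2.31 CPM in WT replicates 1 to 4, a 7.23-fold range in WT and a log2 fold change of -0.20 ± 0.42 (edgeR adjusted p = 0.86). E2f1 had 78.5, 64.4, 65.6 and 83.4 CPM in GrnKO and 93.7, 108, 56.5 and 40.3 CPM in WT, with replicate 2 the highest in WT. Its log2 fold change was -0.03 ± 0.26 (edgeR adjusted p = 0.96), and that of Ccne2 was 0.05 ± 0.38. The mean log2 CPM of the 3 genes was higher in GrnKO (4.80 against 4.66 in WT) although the median of their fitted fold changes was -0.03. With limma-voom, limma-trend or the replicate number as a block, Ccne1 and E2f1 came out above 0.

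**Figure D4:**
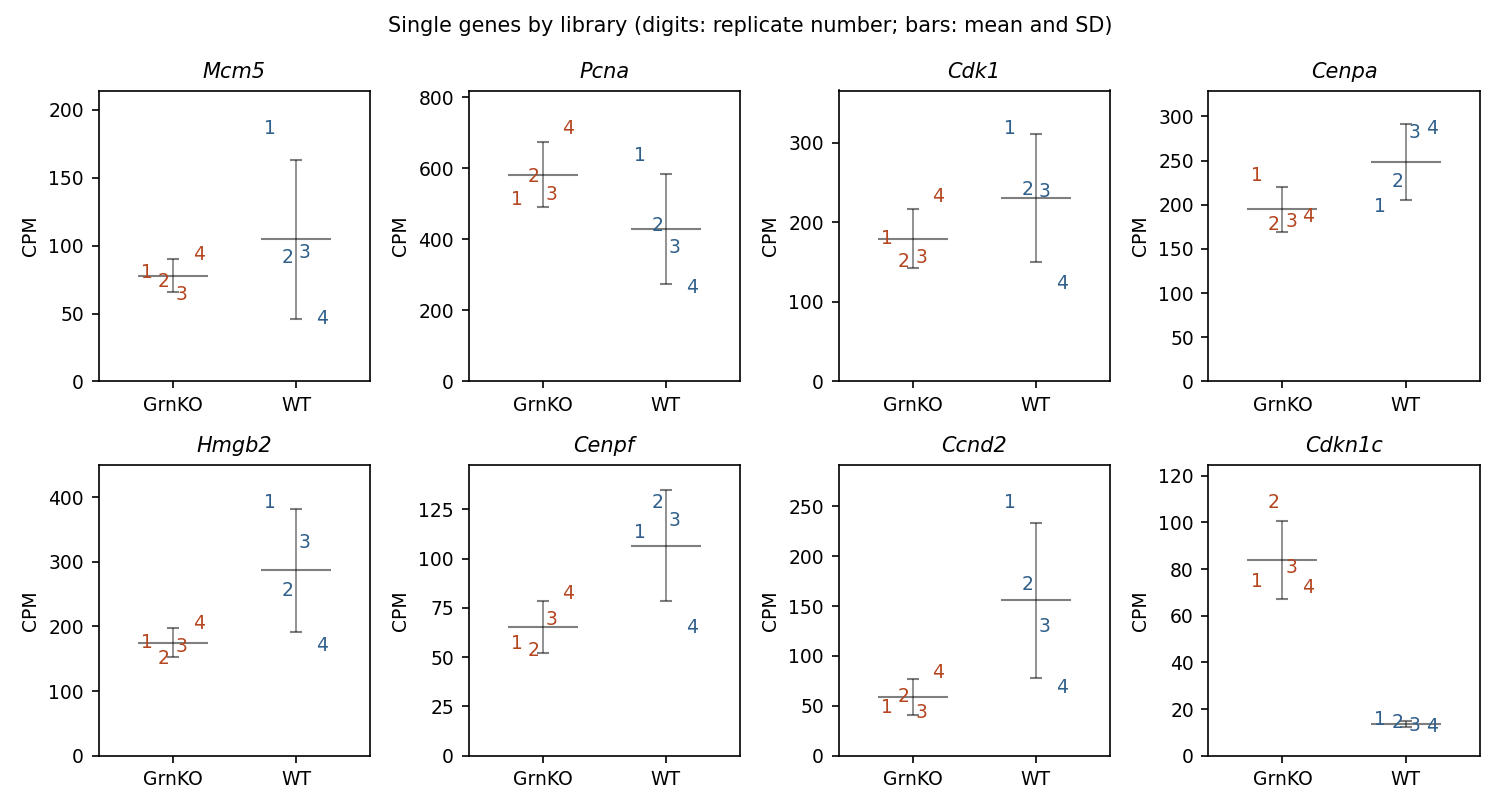
CPM of Mcm5, Pcna, Cdk1, Cenpa, Hmgb2, Cenpf, Ccnd2 and Cdkn1c in each library (digits are replicate numbers, GrnKO left of WT), with the mean and SD of 4 libraries. WT replicates 1 and 4 bound the WT points of Mcm5, Pcna and Cdk1, Cenpa has them in the opposite order, and only Cdkn1c among these 8 genes separates the genotypes.

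Mitotic genes stood below 0 in log2 fold change in 27 of 28 cases, beside 6603 of 12186 tested genes, with a median of -0.28. Among the cyclin-CDK and anaphase-promoting genes, Cdk1 had 179.7, 151, 155 and 232 CPM in GrnKO replicates 1 to 4 and 318, 242, 239 and 123 CPM in WT replicates 1 to 4. In WT 3 libraries exceeded all of GrnKO and replicate 4 was below all of it, for a log2 fold change of -0.36 ± 0.24 (edgeR adjusted p = 0.49). Cdc20 had 21.6, 12.8, 16.6 and 23.3 CPM in GrnKO and 36.4, 29.4, 27.2 and 17.4 CPM in WT, with only WT replicate 4 inside the GrnKO range. The log2 fold change of Cdc20 was -0.57 ± 0.24 (edgeR adjusted p = 0.24). The cyclins Ccna2, Ccnb1 and Ccnb2 and the ubiquitin-conjugating enzyme Ube2c, which marks cyclins for destruction, had log2 fold changes of -0.27, -0.17, -0.22 and -0.13.

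Mitotic kinase and checkpoint genes had a median log2 fold change of -0.34. Bub1b, which encodes the checkpoint protein BubR1, had 16.8, 13.1, 14.3 and 19.1 CPM in GrnKO replicates 1 to 4 and 34.7, 22.1, 26.3 and 13.1 CPM in WT replicates 1 to 4, a log2 fold change of -0.60 ± 0.26 (edgeR adjusted p = 0.25). Birc5, the survivin subunit of the chromosomal passenger complex, had 446, 321, 369.7 and 525 CPM in GrnKO and 704, 611, 564 and 323 CPM in WT, a log2 fold change of -0.41 ± 0.22 (edgeR adjusted p = 0.37). For both genes 3 WT libraries exceeded all of GrnKO and WT replicate 4 did not. Polo-like kinase Plk1 had a log2 fold change of -0.55 ± 0.25, Aurora kinases Aurka and Aurkb -0.26 ± 0.20 and -0.25 ± 0.26, and the checkpoint kinase Bub1 -0.03 ± 0.32.

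Centromere and kinetochore genes had the lowest median SD of the roles in WT (0.44, with 0.28 in GrnKO), and Cenpa ran against the order of the WT cultures. Cenpa had 233, 178, 181 and 187 CPM in GrnKO replicates 1 to 4 and 198, 227, 281 and 286 CPM in WT replicates 1 to 4. WT replicate 4 was thus the highest and WT replicate 1 the lowest WT library, the reverse of 41 other members, and GrnKO replicate 1 stood apart from the other GrnKO libraries. Its log2 fold change was -0.35 ± 0.14 (edgeR adjusted p = 0.22). Cenpf, a kinetochore protein made in G2, had 56.7, 53.4, 68.9 and 82.2 CPM in GrnKO and 113, 128, 119 and 65.2 CPM in WT. Only WT replicate 4 reached into the GrnKO range, and the log2 fold change was -0.70 ± 0.21 (95% interval -1.16 to -0.25), with an edgeR adjusted p of 0.090, the smallest of the 50. The kinetochore motor Cenpe had a log2 fold change of -0.23 ± 0.25.

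Spindle and cytokinesis genes, of which 7 of 8 were below 0 in log2 fold change, had a median of -0.26. Kif20a, a motor of the central spindle, had 52.0, 34.3, 48.0 and 66.8 CPM in GrnKO replicates 1 to 4 and 87.8, 55.8, 79.3 and 59.2 CPM in WT replicates 1 to 4, with replicate 2 the lowest library in both genotypes. For Kif20a the log2 fold change was -0.49 ± 0.21 (edgeR adjusted p = 0.24). Prc1, which bundles the microtubules of the central spindle, had 134, 125, 112 and 174 CPM in GrnKO and 214, 116, 171 and 96.8 CPM in WT, a log2 fold change of -0.13 ± 0.23 (edgeR adjusted p = 0.83) with all of GrnKO inside the WT range. The bipolar spindle motor Kif11, the central spindle proteins Racgap1 and Kif23, the spindle assembly factor Tpx2 and the spindle-associated proteins Nusap1 and Ckap2l ran from -0.35 (Racgap1) to 0.00 (Kif23).

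Genes of chromosome structure had a median log2 fold change of -0.30, and among them was the lowest of the 50, that of Mki67. Hmgb2 had 176, 151, 169 and 204 CPM in GrnKO replicates 1 to 4 and 391, 255, 329 and 171 CPM in WT replicates 1 to 4. WT replicate 4 alone overlapped GrnKO, and the log2 fold change was -0.71 ± 0.21 (95% interval -1.18 to -0.24, edgeR adjusted p = 0.095). Top2a, the topoisomerase that untangles sister chromatids, had 319, 289.7, 303 and 455 CPM in GrnKO and 625, 388, 439 and 231 CPM in WT, a log2 fold change of -0.30 ± 0.25 (edgeR adjusted p = 0.59). Mki67, the chromosome surface protein Ki-67 used as a proliferation marker, had 46.0, 40.8, 59.0 and 82.2 CPM in GrnKO and 111, 121, 97.9 and 49.0 CPM in WT, a log2 fold change of -0.73 ± 0.28 (edgeR adjusted p = 0.19). The condensin subunits Smc2 and Smc4 stood at -0.15 ± 0.22 and -0.11 ± 0.20. Among the microtubule genes, Stmn1, which destabilises microtubules, had 460.5, 365, 418 and 546 CPM in GrnKO and 652, 697, 561 and 357 CPM in WT, a log2 fold change of -0.34 ± 0.19 (edgeR adjusted p = 0.39), and the beta-tubulin gene Tubb5 one of -0.29 ± 0.23.

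No member passed the test between genotypes: 0 of 50 were called by edgeR at an adjusted p under 0.05, where 4.25% of all tested genes were (2.79% higher and 1.46% lower in GrnKO), and the groups were separated for 0 of 50, where they were for 12% of all tested genes. At an unadjusted p under 0.05 there were 8, all mitotic and all lower in GrnKO, namely Cenpf, Hmgb2, Mki67, Cenpa, Cdc20, Kif20a, Bub1b and Plk1. That is 8 of 50 (16%), against 8.79% of all tested genes lower and 17.6% in either direction, and 0 of 20 S-phase genes. The log2 fold change was below 0 for 46 of 50 members, beside 6603 of 12186 tested genes. Its median was -0.25 over the members and -0.03 over all tested genes. The members share their libraries, so their signs are not independent of each other. By class the median was -0.18 for S-phase and -0.28 for mitotic genes, and it was not tested whether the classes differ. A miss of the threshold does not show equality, since the 95% interval lay within a 2-fold change either way for 37 of 50 genes only, 13 of them S-phase and 22 mitotic.

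**Figure D5:**
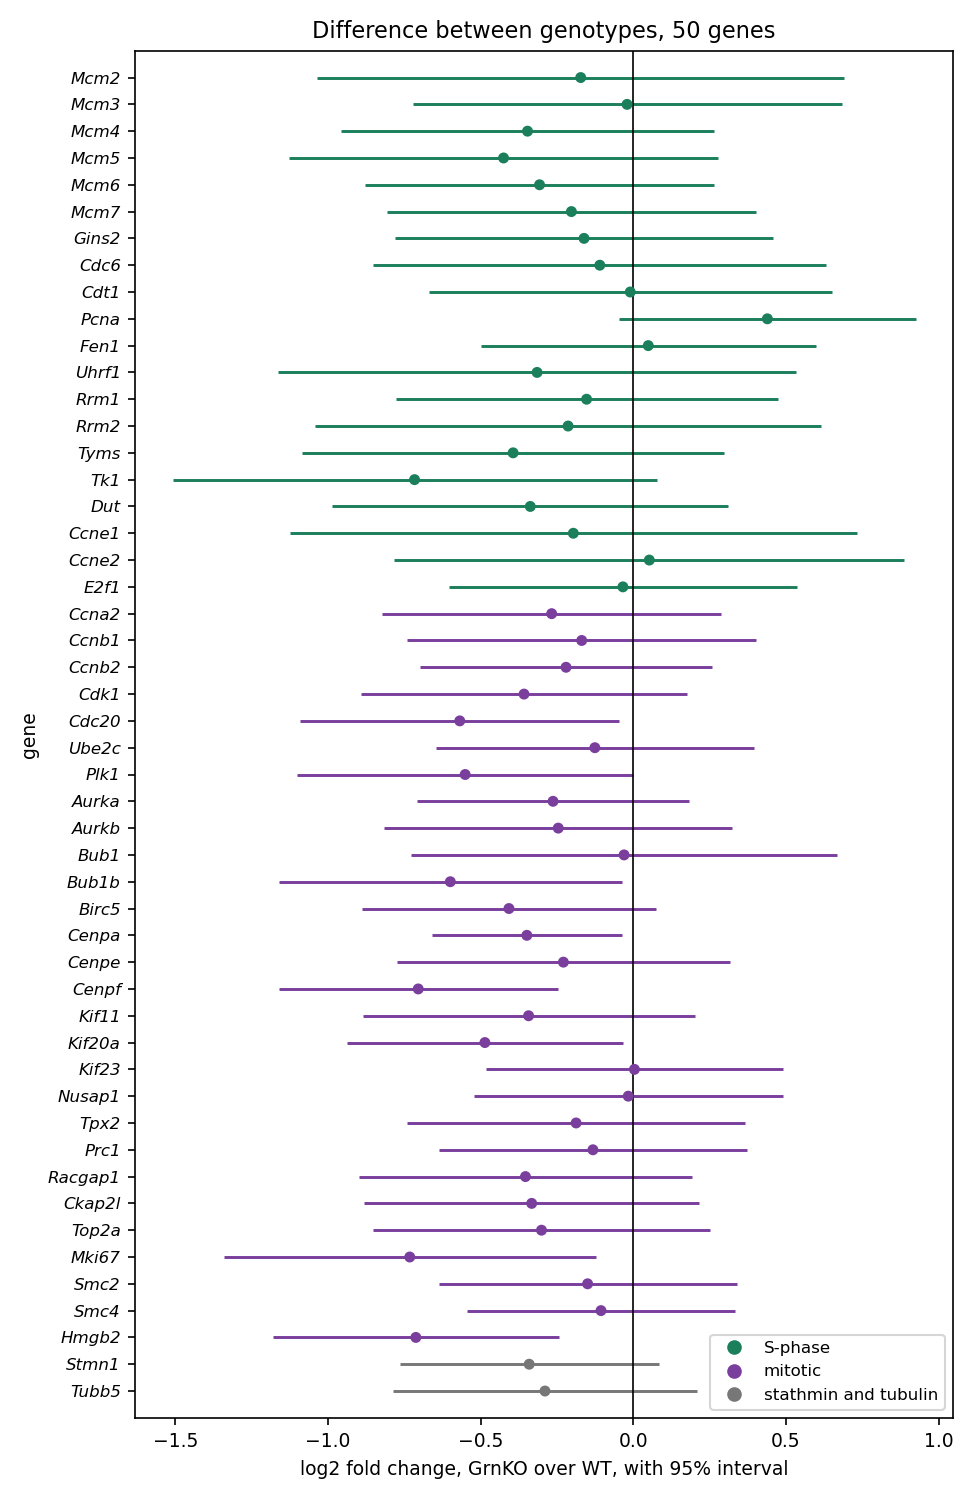
Log2 fold change of GrnKO over WT with its 95% interval for each of the 50 genes, grouped by role and coloured by class. The estimates lie below 0 for 46 of the 50, no gene passed an adjusted p under 0.05, and the intervals together reach from -1.51 to 0.92.

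The calls varied with the outermost WT cultures, and also with the gene filter and the tool. With all libraries and every counted gene kept, edgeR called 7 members, Pcna higher and the others lower in GrnKO. That is 14% of the members, beside 2.51% of the 36571 genes in that fit. Only 12186 of those genes passed the filter on low counts, as all 50 members did, so these shares are not like for like. Without WT replicate 4, edgeR called 7 members, all lower in GrnKO (14% of the 50, beside 5.53% of all genes tested in that fit): Hmgb2, Cenpf, Mki67, Bub1b, Plk1, Tk1 and Birc5. WT replicate 4 was the lowest WT library for 47 of the 50, so leaving it out raises their WT mean by construction. Without WT replicate 1, the highest of WT for Pcna, edgeR called Pcna alone (2%, beside 7.64% of all genes). The median log2 fold change was then 0.16 for S-phase and -0.11 for mitotic genes. With both replicates left out, as an alternative chosen after seeing the data, edgeR called Cenpf, Hmgb2 and Mki67 lower and Pcna higher in GrnKO. That is 8% of the members and near the 7.76% of all genes. DESeq2 with all libraries called Cenpf and Hmgb2 lower, 4% of the members and below its 7.1% of all genes. All 4 GrnKO values lay inside the WT range for 19 of 20 S-phase and 15 of 28 mitotic genes (72% of the 50), against 30.1% of all tested genes.

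Other genes of the same processes had the same outermost WT cultures. Of 46 further replication genes 0 were called by edgeR and 0 by DESeq2, beside 4.25% and 7.1% of all tested genes. In edgeR 0 had an unadjusted p under 0.05, beside 17.6% of all tested genes. Their median log2 fold change was -0.27. WT replicate 1 was highest and WT replicate 4 lowest for 43 of them, against 18% of all tested genes. The smallest p there belonged to Rfc3, a clamp loader subunit (-0.38 ± 0.19), and to Nasp, a histone chaperone (-0.38 ± 0.20). Of 71 further mitosis genes 0 were called by edgeR and 1 by DESeq2 (Lmnb1), beside the same 4.25% and 7.1% of all tested genes. In edgeR 13 of them had an unadjusted p under 0.05, all lower in GrnKO. Of all tested genes 8.79% were lower at that threshold and 17.6% differed in either direction. The median log2 fold change of the mitosis list was -0.32, and WT had the same extremes for 53. Lmnb1, a nuclear lamina gene, had 42.7, 40.1, 33.4 and 46.8 CPM in GrnKO replicates 1 to 4 and 110.4, 68.7, 63.2 and 43.4 CPM in WT replicates 1 to 4 (-0.81 ± 0.24, edgeR adjusted p = 0.088). The spindle pole gene Aspm had one of -0.50 ± 0.17 (edgeR adjusted p = 0.13).

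Among the regulators upstream of these genes, 0 of 19 in the E2F, RB, DREAM and B-MYB-FOXM1 list were called by edgeR or DESeq2. The shares of all tested genes were 4.25% and 7.1%. The median log2 fold change of the 19 was -0.15. In edgeR 2 had an unadjusted p under 0.05, beside 17.6% of all tested genes. The 2 were the pocket protein gene Rbl2 (0.36 ± 0.14) and the repressor E2f7 (-0.77 ± 0.32). Of 11 tested G1 cyclins and CDKs, 1 was called by edgeR, beside 4.25% of all tested genes. The called gene was Ccnd2, the cyclin D2 that couples growth factor signals to CDK4 and CDK6. It had 48.4, 59.5, 42.9 and 83.3 CPM in GrnKO replicates 1 to 4 and 254, 171, 129.8 and 68.4 CPM in WT replicates 1 to 4. GrnKO replicate 4 overlapped WT replicate 4, and WT followed the order of the S-phase means. The log2 fold change of Ccnd2, which fell, was -1.41 ± 0.34 (edgeR adjusted p = 0.039), and without 1 library at a time it was not called in 5 of 8 fits (WT replicates 2 or 3, GrnKO replicates 1, 2 or 3), with an edgeR adjusted p of up to 0.13. The call was also lost with all libraries in limma-voom (adjusted p = 0.068), in limma-trend (adjusted p = 0.053), in edgeR with the replicate number as a block (adjusted p = 0.17) and in edgeR with every counted gene kept (adjusted p = 0.34).

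Of 7 CDK inhibitor genes, with a median log2 fold change of -0.26, 1 was called, beside 4.25% of all tested genes. It was Cdkn1c, which encodes p57 and had 74.6, 108, 80.5 and 72.0 CPM in GrnKO replicates 1 to 4 and 15.4, 14.1, 13.0 and 12.4 CPM in WT replicates 1 to 4. The groups were separated, and Cdkn1c rose with a log2 fold change of 2.61 ± 0.16 (edgeR adjusted p = 6.24e-06); it was also called with any library left out. Of 21 tested quiescence and antiproliferative genes 3 were called, beside the same 4.25% of all tested genes. The growth arrest gene Gadd45a had 82.9, 87.9, 102 and 89.3 CPM in GrnKO replicates 1 to 4 and 15.3, 21.0, 20.4 and 22.9 CPM in WT replicates 1 to 4 and rose, with a log2 fold change of 2.19 ± 0.14. Its relative Gadd45b had 18.2, 28.05, 22.4 and 15.5 CPM in GrnKO and 7.33, 8.32, 7.80 and 8.85 CPM in WT and also rose (1.38 ± 0.20). For both, all GrnKO libraries were above all WT libraries. The transcription factor gene Klf2 had 34.5, 27.2, 24.9 and 26.2 CPM in GrnKO and 39.7, 41.7, 42.2 and 47.7 CPM in WT and fell, with a log2 fold change of -0.60 ± 0.13 (edgeR adjusted p = 0.027). The call of Klf2 was lost without WT replicate 3, without GrnKO replicates 2, 3 or 4, or with the replicate number as a block. Of 21 tested M-CSF signalling genes 1 was called, again beside 4.25% of all tested genes. The called gene was the immediate early gene Egr1. It had 21.6, 30.5, 23.0 and 17.6 CPM in GrnKO and 4.49, 7.35, 7.43 and 5.17 CPM in WT and rose, with a log2 fold change of 1.92 ± 0.22 (edgeR adjusted p = 0.000636).

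The M-CSF receptor gene ran opposite to the cycle genes among cultures. Csf1r had 591, 593, 567 and 391 CPM in GrnKO replicates 1 to 4 and 485, 785, 768 and 1015 CPM in WT replicates 1 to 4. It was lowest where the cycle genes were highest in each genotype, in GrnKO replicate 4 and WT replicate 1, and highest in WT replicate 4. Its log2 fold change was -0.51 ± 0.20 (edgeR adjusted p = 0.21). It was named after its values were seen.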

How the data were processed

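RNA was sequenced from the 3′ end (QuantSeq, with molecular identifiers to remove PCR duplicates), per the labels' protocols. The authors deposited estimated counts per gene, which came from Salmon and the build GRCm39, per the submitters' processing notes; its version and gene models are not given in the sources used here. Among non-zero estimated counts 36.38% were not whole (tolerance 1e-06), so they were rounded. The authors also deposited log2 CPM values, used here only as an alternative. Groups came from the sample titles. No library was a repeat of another (chi-square per degree of freedom of at least 3.074 between libraries of a genotype).

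With edgeR 4.0.16 in R 4.3.3, filterByExpr kept 12186 of 56980 genes, and GrnKO was tested against WT with TMM factors, robust dispersions, the quasi-likelihood F test and Benjamini-Hochberg adjustment over all tested genes. CPM values use TMM-scaled totals, log2 CPM adds a prior count of 2, and SE follows from the F statistic. Alternatives used DESeq2 1.42.0, limma 3.58.1, other factors and filters, the replicate number as a block, and each library left out. The fit was tested on simulated counts. Members and lists were chosen with earlier results of these data known. Per role, full values are given for the member with the smallest p and that with the highest mean CPM, and of each other list the called genes, or fold changes of the 2 with the smallest p, are named; Mki67 was added in full after its value was seen. A non-whole count in at least 1 library, a sign of reads shared between transcripts, occurred for 43 of the 50 members. In all 8 libraries it occurred for Mcm7, Pcna, E2f1, Hmgb2 and Stmn1, whose values are uncertain. Pcna, Tyms and Ccnb1 have pseudogene entries with counts and are uncertain too. Ccnb2 has an entry with 0 counts in every library and had whole counts itself. Promoters were matched by symbol in RefSeq's GRCm38.p6 table, whose build is not the authors'.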

Additional observations from a re-analysis of the deposited data

Results flagged for a closer look

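Cenpa in GrnKO was the single case of a library far from the others of its group. GrnKO replicate 1 had 233 CPM and the other GrnKO libraries 178 to 187 CPM, so that the gap to the nearest library was 0.834 of the whole range, above Dixon's 95% critical value for 4 samples. This comparison was made for 74 groups of 4 libraries, and chance gives about 1 such case in 20 groups.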

How the results depend on the processing

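With all libraries, 0 members were called under other scaling factors, a minimum mean of 5 CPM, non-robust dispersions, limma-voom and limma-trend, and also with counts thinned to the smallest total. With every gene counted in any library kept, edgeR called 7 members (1 S-phase, Pcna, higher; 6 mitotic, Hmgb2, Cenpf, Plk1, Mki67, Kif20a and Bub1b, lower), among 918 genes of 36571. DESeq2 called 2 members, both mitotic, among 865 genes, and a threshold of 0.1 also gave 2, both mitotic, among 836. In both cases they were Cenpf and Hmgb2. Leaving out 1 library gave 0 to 7 members, 0 to 1 S-phase, 0 to 6 mitotic, and 267 to 942 genes in all. Without WT replicates 1 and 4 together, chosen after seeing the data, it gave 4 members (1 S-phase, 3 mitotic), and the median SD in WT was 0.137 for S-phase and 0.174 for mitotic genes. Leaving out 1 library, that SD ran from 0.49 to 0.94 for S-phase and 0.30 to 0.62 for mitotic genes in WT, and from 0.14 to 0.35 for S-phase and 0.15 to 0.38 for mitotic genes in GrnKO. The median log2 fold change then ran from -0.43 to 0.16 for S-phase and -0.45 to -0.11 for mitotic genes.

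The log2 fold changes of 5 named members changed sign under some setting. Ccne1 was 0.0687 with limma-voom, 0.0218 with the replicate block and 0.0421 with limma-trend, and E2f1 was 0.0616, 0.0575 and 0.0097 in that order. Leaving out 1 library, Mcm5 ran from -0.67 to 0.0108, Rrm1 from -0.38 to 0.0995, Ccne1 from -0.50 to 0.31, E2f1 from -0.24 to 0.20 and Prc1 from -0.29 to 0.0919. The cause was not tested. Same-numbered libraries of the genotypes did not deviate together (correlations of -0.39 to 0.15), and not every library correlated best with its own number, so replicate numbers were not taken as pairs. With the replicate block edgeR called 0 members and 220 genes. With no scaling factors the median of all genes was -0.10, that of S-phase members -0.27 and that of mitotic members -0.36.

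Each genotype has 4 pooled cultures, which limits the precision. The SD among cultures exceeded the counting SD for all 50 members, but for Ccne1 in GrnKO counting error was nearly as large (SD 0.21 against a counting SD of 0.20).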

Other observations

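Genes outside the 50 followed the cycle classes closely over the 8 libraries. The 5 with the highest Pearson correlation with the mean log2 CPM of the S-phase genes were the splicing factor gene Srsf3 (r = 0.995), Plekha3 (0.992), the nuclear transport GTPase gene Ran (0.992), Lrr1 (0.991) and Tex30 (0.988). Srsf3 had 388, 395, 359 and 473 CPM in GrnKO replicates 1 to 4 and 593, 407, 406 and 262 CPM in WT replicates 1 to 4. Those closest to the mitotic mean were the DNA repair gene Fancd2 (r = 0.980), the spindle and kinetochore gene Ska2 (0.979), the histone chaperone gene Asf1a (0.979), the replication protein A subunit gene Rpa1 (0.977) and Cit, the citron kinase of cytokinesis (0.977). The 8 points share library and depth and were picked from 12186 genes, so these values are a description.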
